A study of Mus musculus with 6 samples.

Results

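The genes described here are the 3 D-type cyclins, Ccnd1, Ccnd2 and Ccnd3, and the 2 kinases they activate, Cdk4 and Cdk6. They were chosen by name, as the rows of the count table whose mouse Ensembl identifier maps to one of these symbols. All 5 were found among 55401 genes, and all 5 passed the filter on low counts that left 14661 genes to test. The cells were ADC106, a mouse angiosarcoma line, that is, a line from a malignant tumour of vessel-lining cells. In the NC group, whose genotype is labelled WT, cells received a mimic labelled NC. In the miR-497 group, labelled as overexpressing miR-497, they received an miR-497 mimic. Each mimic was given at 12.5 nM, RNA was taken 3 days later, and each group had 3 libraries, prepared by poly(A) enrichment. The sequences of both mimics are not given in the sources used here. All libraries come from 1 cell line, and the labels do not say whether replicates were separate cultures, so the p-values measure only the spread between these libraries.

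D-type cyclins are the regulatory subunits that growth signals induce in early G1. They bind Cdk4 or Cdk6, and the active complexes phosphorylate the retinoblastoma protein and its relatives, which releases E2f transcription factors and opens the way to S phase. The INK4 proteins block Cdk4 and Cdk6 directly, while p21 and p27 bind the assembled complexes. A microRNA loaded into Argonaute recognises transcripts mainly through its seed, which here means bases 2 to 8 from the 5′ end, and D cyclin transcripts are known targets of the miR-16 family. The comparison of the 2 groups asks which transcripts respond to miR-497.

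The libraries held 25777676 to 36159499 counts, of which the 5 genes together took 0.211% to 0.224% with NC and 0.112% to 0.120% with miR-497. Mitochondrially encoded genes took 2.11% ± 0.0698 of counts with NC and 3.30% ± 0.428 with miR-497 (SD, n = 3; exact permutation test, 2-sided, p = 0.1, the smallest that 3 against 3 allows); the part of this shift in the results below was not tested. All 12 endothelial markers listed were tested. At an edgeR adjusted p under 0.05, 7 were higher and 4 lower, where 23.8% of all tested genes were higher and 26% lower. Their summed level was 1947 to 2062 RPKM in NC libraries and 2030 to 2081 in miR-497 libraries. RPKM is CPM, that is, counts scaled to a common library size with TMM, divided by the exon length in kilobases. The sum covers moves in both directions. The largest log2 fold changes were 1.03 for Emcn and 1.02 for Cldn5 among the higher genes, and -0.94 for Egfl7 and -0.52 for Pecam1 among the lower. Of the other lists, the summed level of 5 macrophage and leukocyte markers was 6.97 to 7.63 RPKM with NC and 12.0 to 15.8 with miR-497, with Ptprc, which defines leukocytes, at a mean of 0.156 and 0.185 CPM and the macrophage gene Adgre1 at 0.0292 CPM with NC and listed at 0 with miR-497. Of the 3 members of that list that were tested, the lysosomal gene Cd68 was higher, at 8.25 ± 0.197 CPM with NC and 17.5 ± 2.39 with miR-497 (log2 fold change 1.08, edgeR adjusted p = 9.74e-07), and it made up most of the summed level. Lyz2 and Csf1r, the others tested, had negative log2 fold changes, -1.73 and -0.21. Neither passed the test (edgeR adjusted p = 0.0515 and 0.681), and their means with NC were low, 0.680 and 1.06 CPM. For 6 fibroblast and perivascular markers the summed level was 33 to 35.4 and 47.0 to 56.5 RPKM, with Dcn at a mean of 0.0685 CPM with NC and 0.0531 with miR-497. Of the 5 of these that were tested, 2 collagen genes were higher, Col1a1 (61.7 to 110.4 CPM, log2 fold change 0.84) and Col1a2 (129 to 286 CPM, 1.15), and Pdgfrb, a receptor of perivascular cells, was lower (52.8 to 40.8 CPM, -0.37), with edgeR adjusted p of 7.38e-09, 4.39e-10 and 0.00497. The 4 epithelial markers summed to 0.168 to 0.601 and 0.0957 to 0.280 RPKM. The part of these marker shifts in the results was not tested.

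The mouse guide strand of miR-497 is shown first because its seed sets which transcripts it can pair with. RefSeq (GRCm38.p6) places it at chr11:70234730-70234751 on the + strand. The seed is in capitals. In the RefSeq table, 10 mature mouse miRNAs carry this seed, miR-497a-5p included, and 3 of the others are shown beside it. Since miR-15a, miR-16 and miR-195a carry the same seed, a match described for miR-497-5p is a match for them too.

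miR-497a-5p: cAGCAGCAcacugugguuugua
miR-195a-5p: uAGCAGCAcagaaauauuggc
miR-16-5p: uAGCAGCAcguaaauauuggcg
miR-15a-5p: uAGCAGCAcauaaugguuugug

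Matches to the seed were searched in the transcript strand of the longest annotated 3′ UTR of each gene (GENCODE M21, GRCm38). A site was TGCTGCT (7mer-m8), the same followed by A (8mer) or GCTGCTA (7mer-A1), while the 6mer GCTGCT, which lies inside all of these, counted only as a bare 6mer where it stood alone. Among the 12850 genes that were tested and have an annotated 3′ UTR, 28.1% had at least 1 site, 8.97% had 2 or more, 3.08% had 3 or more and 4.61% had an 8mer. Ccnd1, Ccnd2 and Cdk6 had 3 sites each, Ccnd3 had 2 and Cdk4 had none. The 11 sites are shown with their surroundings because they are the matches of these classes where the mimic could pair with the 3′ UTRs. Bare 6mers and matches in the coding sequence are not shown. Capitals mark the site.

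Ccnd1 site 1, 7mer-A1, chr7:144930867-144930891, - strand: ggctcctctcatggcGCTGCTAccg
Ccnd1 site 2, 7mer-A1, chr7:144930790-144930814, - strand: tttcacgttgttttcGCTGCTAttg
Ccnd1 site 3, 7mer-m8, chr7:144930391-144930415, - strand: tgtgcatgccaccaTGCTGCTggcc
Ccnd2 site 1, 7mer-A1, chr6:127129692-127129716, - strand: ttgctgactaaagtaGCTGCTAcct
Ccnd2 site 3, 7mer-A1, chr6:127128608-127128632, - strand: ttattattatttttcGCTGCTAaga
Ccnd2 site 4, 8mer, chr6:127128538-127128562, - strand: aatgtttcacggtgTGCTGCTAttt
Ccnd3 site 2, 7mer-m8, chr17:47599280-47599304, + strand: actgttgctttgctTGCTGCTtagc
Ccnd3 site 3, 7mer-A1, chr17:47599455-47599479, + strand: ctttgtggcccaggaGCTGCTAcag
Cdk6 site 3, 8mer, chr5:3524531-3524555, + strand: caagttgcacagggTGCTGCTAtct
Cdk6 site 5, 7mer-m8, chr5:3525954-3525978, + strand: ataaagtgccaaatTGCTGCTgctt
Cdk6 site 6, 7mer-m8, chr5:3525957-3525981, + strand: aagtgccaaattgcTGCTGCTtctt

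Numbers within a gene count all matches from the stop codon, bare 6mers included. Sites 5 and 6 of Cdk6 overlap, since both start within 1 run of the repeated triplet, so the 2 cannot be occupied at once. The 3′ UTRs differ widely in length, with 915 bases for Ccnd3, 899 for Cdk4, 2676 for Ccnd1, 5173 for Ccnd2 and 10217 for Cdk6. Per kilobase of 3′ UTR, Ccnd3 therefore had the most sites of the 5, at 2.19, followed by Ccnd1 at 1.12, Ccnd2 at 0.58 and Cdk6 at 0.294. Shorter annotated 3′ UTRs exist for Ccnd2 (301 bases), Ccnd3 (87 bases) and Cdk6 (1434 bases), and none of these holds a site. Gene-level counts do not show which 3′ UTR end the cells used. In the coding sequence, Ccnd2 and Cdk4 had 1 site each and the other genes had none. The map of seed matches sets the 5 genes side by side.

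**Figure D1:**
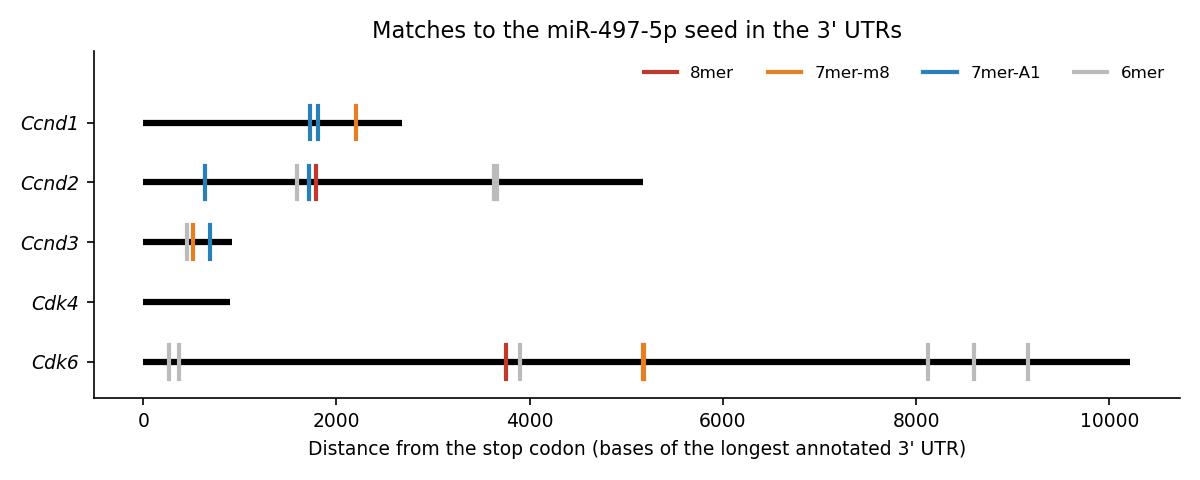
Matches to the miR-497-5p seed along the longest annotated 3′ UTR of each gene, as distance in bases from the stop codon (x axis); the colour of a bar gives the class of match and the black line the length of the 3′ UTR. Ccnd3 carries 2 sites in 915 bases, Cdk6 carries 3 in 10217, and Cdk4 has no match of any class.

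With miR-497, all 3 D cyclins and Cdk6 fell, while Cdk4 was slightly higher. Ccnd3 fell most, then Ccnd2, then Cdk6, and Ccnd1 fell least. At a threshold of 0.05 on edgeR's quasi-likelihood p, adjusted over all tested genes by the Benjamini-Hochberg method, 4 of the 5 genes were lower and 1 higher, where 26% of all tested genes were lower and 23.8% higher, 49.8% in all. For all 5 genes, the 3 miR-497 values lay outside the range of the 3 NC values, which held for 57.4% of all tested genes. For 4 of them they lay below it, as for 29.6% of all tested genes, and for Cdk4 above it, as for 27.8%. Falls of at least 2-fold were found for Ccnd3, Ccnd2 and Cdk6, against 5.19% of all tested genes. In bulk RNA, fewer cells with a transcript and less of it per cell cannot be told apart.

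Ccnd3, the D cyclin best known from lymphoid and muscle cells, lies at chr17:47505051-47599691 on the + strand. Its level was 422, 437 and 437 CPM in NC libraries 1 to 3, and 104, 108 and 86.3 CPM in miR-497 libraries 1 to 3. The NC libraries lay within a narrow band and every miR-497 library was far below it. The mean was 432 ± 8.86 CPM with NC and 99.4 ± 11.5 CPM with miR-497 (SD over 3 libraries). The log2 fold change was -2.12 (SE 0.0715; 95% interval -2.27 to -1.97; edgeR adjusted p = 8.28e-13), or 4.35-fold lower. Only 1.06% of tested genes were called lower by as much as Ccnd3. Its processed pseudogene, Ccnd3-ps, had 0 to 3 counts per library, so few reads were assigned to that copy. An opposite-strand gene, Bysl, covers 4.11% of the Ccnd3 exon bases.

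Ccnd2, the D cyclin that PI3K signalling and Myc are known to raise, lies at chr6:127125162-127152193 on the - strand. Before length is taken into account it had the most counts of the 5 genes with NC, 25406 to 31352 per library. It stood at 814, 859 and 902 CPM in NC libraries and at 308, 327 and 284 CPM in miR-497 libraries. The means were 858 ± 44.2 and 306 ± 21.5 CPM, so the groups were far apart relative to the spread within each. The log2 fold change was -1.49 (SE 0.0630; 95% interval -1.62 to -1.35; edgeR adjusted p = 1.38e-11), or 2.80-fold lower. Opposite-strand transcripts cover 7.87% of its exon bases, and the one of these with the most counts, 9330179D12Rik, had 27 to 45 counts per library.

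Ccnd1, the D cyclin most often amplified or overexpressed in tumours, lies at chr7:144929931-144939925 on the - strand. Its level was 516, 541 and 603 CPM with NC and 457, 477 and 425 CPM with miR-497. The groups did not overlap, but the lowest NC library and the highest miR-497 library were close. The mean was 554 ± 44.7 CPM with NC and 453 ± 25.9 CPM with miR-497 (SD over 3 libraries). The log2 fold change was -0.29 (SE 0.0644; 95% interval -0.43 to -0.15; edgeR adjusted p = 0.00122), or 1.22-fold lower. LTO1, on the opposite strand, covers 23.4% of the Ccnd1 exon bases. The strand setting of the counting is not given in the sources used here, so the value is uncertain to that extent; LTO1 itself had 361 to 569 counts per library, against 11495 to 19770 for Ccnd1.

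Cdk6, the kinase partner best known from blood cells, lies at chr5:3341485-3531008 on the + strand. It had 94.4, 85.7 and 84.3 CPM with NC and 35.1, 38.6 and 40.7 CPM with miR-497. The means were 88.1 ± 5.49 and 38.1 ± 2.79 CPM, and no miR-497 library came near the lowest NC library. Its log2 fold change was -1.21 (SE 0.0720; 95% interval -1.36 to -1.05; edgeR adjusted p = 7.41e-10), or 2.31-fold lower. The opposite-strand genes annotated within it, Gm17590 and Gm42435, had 0 counts in all 6 libraries.

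Cdk4, the kinase partner expressed in most dividing cells, lies at chr10:127063534-127067920 on the + strand. It had 223, 244 and 239 CPM with NC and 268, 262 and 260.1 CPM with miR-497. The groups did not overlap, by a margin smaller than the range of the NC libraries. The log2 fold change was 0.16 (SE 0.0523; 95% interval 0.05 to 0.27; edgeR adjusted p = 0.0158), or 1.12-fold higher. The call was lost without NC library 1, which had the lowest value (edgeR, 0.12, adjusted p = 0.104), and with the replicate number as a block (edgeR, 0.16, adjusted p = 0.0549). Tspan31, on the opposite strand, covers 19.7% of the Cdk4 exon bases and itself fell (log2 fold change -0.44, SE 0.0656, edgeR adjusted p = 2.9e-05), from between 1820 and 2356 counts to between 1267 and 1476.

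**Figure D2:**
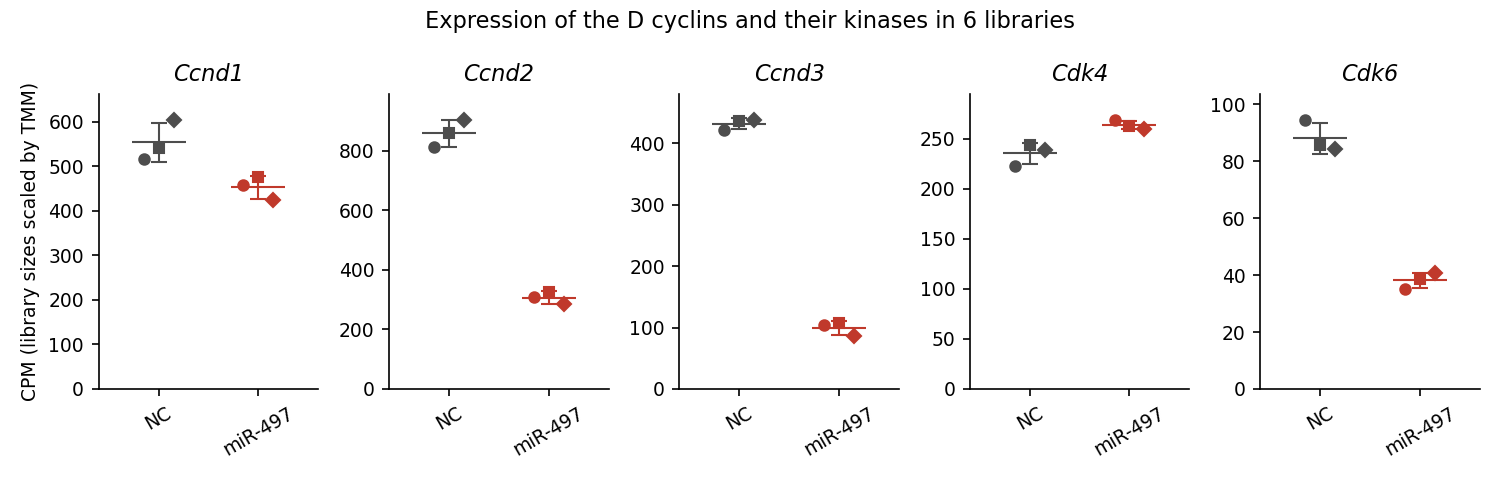
Expression of each gene in CPM (y axis, from 0) in the 3 NC and the 3 miR-497 libraries; points are libraries (circle, square and diamond for numbers 1 to 3), the horizontal line is the group mean and the bar its SD. Ccnd2, Ccnd3 and Cdk6 show wide gaps between the groups, Ccnd1 a small gap, and Cdk4 a small gap in the other direction, from 235 ± 10.8 to 264 ± 4.30 CPM.

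The sizes of the changes were then compared within libraries, since the ratio of 2 genes in 1 library does not depend on how libraries are scaled. The log2 ratio of Ccnd3 to Ccnd2 counts was -0.99 ± 0.0497 with NC and -1.63 ± 0.0801 with miR-497 (SD, n = 3), a shift of -0.64. For Ccnd2 to Ccnd1 it went from 0.63 ± 0.0464 to -0.56 ± 0.0195, a shift of -1.20, so Ccnd2 had more counts than Ccnd1 in every NC library and fewer in every miR-497 library. The ratio of Ccnd3 to Ccnd1 shifted by -1.84, and that of Cdk6 to Cdk4 by -1.37, from -1.42 ± 0.153 to -2.79 ± 0.130. In all 4 ratios the groups did not overlap, and each shift was larger than the spread between replicates (exact permutation test, 2-sided, p = 0.1 for each of 4 ratios, which is the smallest that 3 against 3 allows and cannot pass 0.05). In these libraries the size of the change thus differed among the 3 D cyclins and between the 2 kinases.

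**Figure D3:**
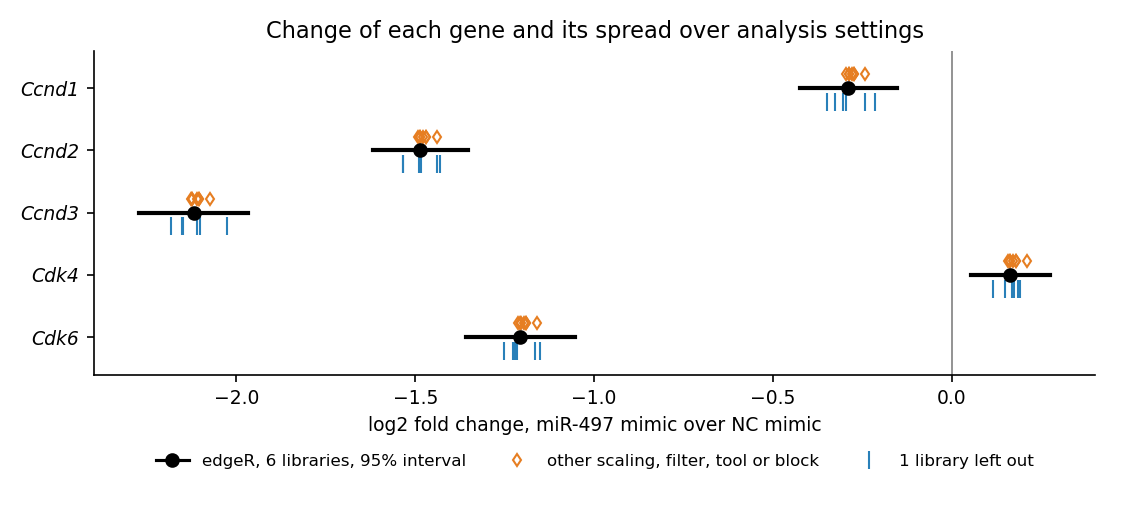
Log2 fold change of each gene, miR-497 over NC (x axis); black points and lines give the edgeR value and its 95% interval, orange diamonds the other scalings, filters, tools and the replicate block, and blue ticks the fits with 1 library left out. The intervals of Ccnd1, Ccnd2 and Ccnd3 do not touch each other, and all settings keep every gene on its side of 0.

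Levels can be compared between genes only per length, and the order depends on the length used. With the length of all annotated exons, the NC order was Ccnd1 (118 ± 9.50 RPKM), Ccnd2 (91.2 ± 4.69), Cdk4 (72.5 ± 3.33), Ccnd3 (49.2 ± 1.01) and Cdk6 (6.30 ± 0.392), with no overlap between neighbours (SD, n = 3). With miR-497 it was Ccnd1 (96.2 ± 5.50 RPKM), Cdk4 (81.1 ± 1.32), Ccnd2 (32.6 ± 2.28), Ccnd3 (11.3 ± 1.31) and Cdk6 (2.73 ± 0.1995), again without overlap. For Ccnd3, all annotated exons together span 8775 bases, against 2113 for its longest protein-coding transcript. With the longest protein-coding transcript, Ccnd3 came first in NC libraries, at 204 ± 4.19 RPKM, ahead of Ccnd1 (148 ± 12.0) and Ccnd2 (136 ± 6.98), whose ranges overlapped, and Cdk4 (115 ± 5.27). On that scale the miR-497 libraries had Cdk4 (128 ± 2.09 RPKM) and Ccnd1 (121 ± 6.93) with overlapping ranges, then Ccnd2 (48.4 ± 3.39) and Ccnd3 (47.0 ± 5.44), also overlapping. With the median length of protein-coding transcripts, the NC order was Ccnd2 (863 ± 44.4 RPKM), Ccnd3 (486 ± 9.96), Cdk4 (221 ± 10.2), Ccnd1 (148 ± 12.0) and Cdk6 (126 ± 7.87). Many annotated transcripts are short, and the median was 994.5 bases for Ccnd2, 889.5 for Ccnd3 and 697 for Cdk6. Their longest protein-coding transcripts have 6330, 2113 and 11525 bases, while for Ccnd1 both lengths are 3740. Cdk6 had the lowest level of the 5 on all 3 scales in both groups, at 7.65 ± 0.476 and 3.31 ± 0.242 RPKM on the second. The ranks of the 3 D cyclins among themselves are therefore not settled by these counts.

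Summed over the 3 D cyclins, RNA per length was 244, 256 and 274 RPKM in NC libraries and 142, 148 and 130.3 RPKM in miR-497 libraries with the length of all exons. The mean with miR-497 was 54.3% of that with NC, and 44.4% when the longest transcripts set the lengths. The make-up of the sum shifted toward Ccnd1. Its share was 45.5% ± 1.08 with NC and 68.7% ± 0.530 with miR-497 (SD, n = 3), while that of Ccnd2 was 35.4% ± 0.316 and 23.2% ± 0.177, and that of Ccnd3 19.1% ± 0.795 and 8.07% ± 0.454. With the longest transcripts the share of Ccnd1 was 30.3% ± 1.10 and 55.97% ± 0.905, and that of Ccnd3 41.9% ± 1.23 and 21.7% ± 1.04. Of the summed RNA of the 2 kinases, Cdk4 made up 92.0% ± 0.801 with NC and 96.7% ± 0.280 with miR-497. With median transcript lengths the sum with miR-497 was 36.1% of that with NC, and the share of Ccnd1 was 9.88% with NC and 22.4% with miR-497, while Ccnd2 made up the largest share in both groups, 57.7% and 56.98%. So the share of Ccnd1 was higher with miR-497 for all 3 lengths, but which cyclin made up most of the sum depended on the length. These sums and shares describe the libraries and were not tested.

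**Figure D4:**
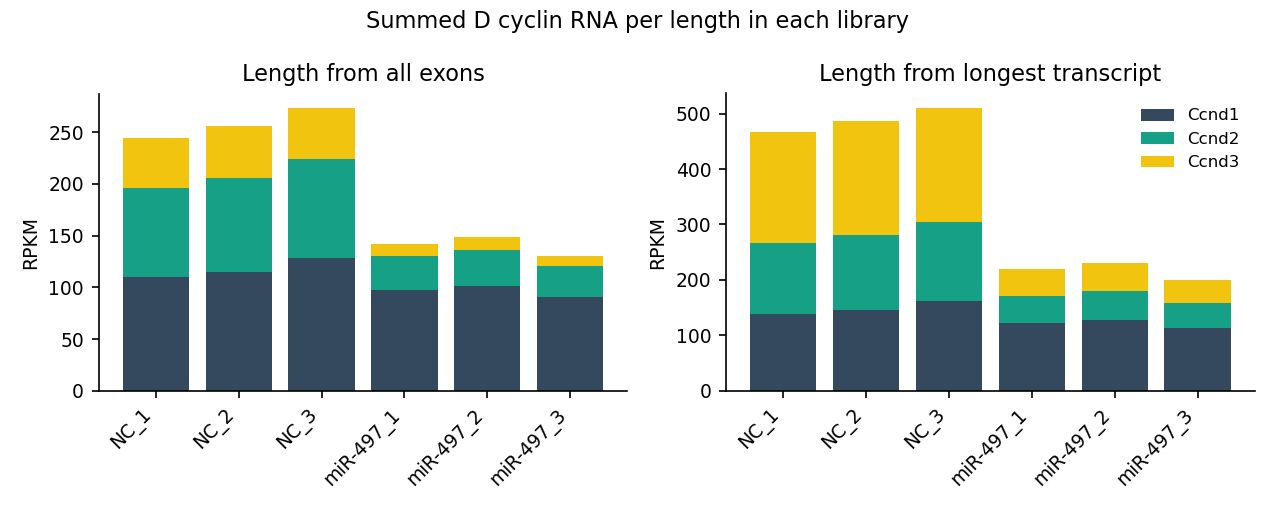
Summed D cyclin RNA in RPKM (y axis) in each library (x axis), with the length of all annotated exons on the left and of the longest protein-coding transcript on the right; colours give the part of each cyclin. The sum is lower in all 3 miR-497 libraries with both lengths, and Ccnd1 makes up 68.7% of it on the left and 55.97% on the right (22.4% with median transcript lengths, not drawn, where Ccnd2 makes up 56.98%).

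The other genes of the G1 pathway were described by 6 lists, each counted at an adjusted p under 0.05 in the same edgeR test and read against 26% lower, 23.8% higher and a median log2 fold change of -0.02 over all tested genes. Among the 7 Cdk inhibitors, 4 were lower and 3 did not pass the test, with a median log2 fold change of -0.42. Of those 4, the 3 with the largest falls were INK4 genes, whose products bind Cdk4 and Cdk6 and keep cyclins off them. Cdkn2c, which encodes p18, had 8.56 ± 0.713 CPM with NC and 3.41 ± 0.201 with miR-497, a log2 difference of -1.32 (edgeR adjusted p = 2.89e-06). Cdkn2d, which encodes p19INK4d, fell by 0.85 and Cdkn2b, which encodes p15, by 0.42 on the log2 scale (edgeR adjusted p = 8.29e-05 and 1.1e-05). The remaining INK4 gene, Cdkn2a, had 5.54 ± 2.89 CPM with NC and 3.94 ± 0.543 with miR-497, overlapping ranges, and did not pass the test (-0.49, edgeR adjusted p = 0.166). The other lower inhibitor was Cdkn1b, which encodes p27. It fell by 0.24 on the log2 scale, from 71.7 ± 2.34 to 60.7 ± 1.67 CPM (edgeR adjusted p = 0.00317). Cdkn1a, which encodes p21, had 263 ± 17.2 CPM with NC and 284 ± 5.56 with miR-497 and did not pass the test (log2 fold change 0.11, 95% interval -0.01 to 0.23, edgeR adjusted p = 0.106).

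Downstream of the kinases, 4 of 13 pocket protein, E2f and Dp genes were lower and 2 higher, with a median of -0.11. Rbl1, which encodes the pocket protein p107, fell from 34.6 ± 2.11 to 18.8 ± 0.942 CPM (log2 fold change -0.88, SE 0.0804, edgeR adjusted p = 1.22e-07). E2f4, a repressor E2f, fell by 0.52, and E2f7, an E2f that acts without a Dp partner, by 0.50 on the log2 scale (edgeR adjusted p = 2.18e-06 and 0.00014). Tfdp2, a Dp partner, was higher by 0.35 (edgeR adjusted p = 0.00177). Rb1, which encodes the retinoblastoma protein, was higher by 0.33 (edgeR adjusted p = 0.0448), a call lost in 6 settings: with the replicate block (edgeR adjusted p = 0.0557) and without each of NC library 2 or 3 or any of the 3 miR-497 libraries (edgeR adjusted p up to 0.157). Opposite-strand genes cover 14.9% of the Rb1 exons. E2f1, an activator E2f, did not pass the test, with 34.2 ± 0.280 CPM with NC and 34.3 ± 0.0970 with miR-497 (95% interval of the log2 fold change -0.14 to 0.14, edgeR adjusted p = 0.975). The remaining lower gene was E2f3, which fell by 0.23 on the log2 scale (edgeR adjusted p = 0.00887). E2f2 did not pass the test (log2 fold change 0.06, edgeR adjusted p = 0.511).

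Among 7 genes of cyclin E, Cdk2 and the kinase that activates Cdks, 5 were lower and 1 higher, with a median of -0.39. Ccne1, which encodes the cyclin that follows the D cyclins in G1, fell from 51.8 ± 2.20 to 13.1 ± 1.96 CPM, 3.96-fold (log2 fold change -1.99, edgeR adjusted p = 6.04e-11), and had 2 sites. Cdc25a, the phosphatase that activates Cdk2, fell by 0.73 (edgeR adjusted p = 4.55e-07) and also had 2 sites. Of the tested genes with a site, 2 of 2 were lower in this list and 1 of 2 among Cdk inhibitors. It was 2 of 4 among pocket protein, E2f and Dp genes and 3 of 3 among E2f targets. Among upstream factors it was 1 of 2, and among genes of turnover and folding 1 of 3. Over all tested genes with a site, 1480 of 3613 were lower, and the counts per list are too small to be set apart from that share. Tfdp2 and Foxo3, both higher, had 1 site each, while Cdkn2c, Rbl1 and Fos, all lower, had none. Ccne2 fell by 0.44 (edgeR adjusted p = 0.0113), while Ints8 covers 17.4% of its exons on the opposite strand. The call was lost without miR-497 library 3, at -0.29 and an edgeR adjusted p of 0.0558. Ccnh, the cyclin of the Cdk-activating kinase, was higher by 0.37 (edgeR adjusted p = 0.000243). Of the other genes of that kinase, Mnat1 fell by 0.39 on the log2 scale (edgeR adjusted p = 0.000137). Cdk7 did not pass the test (log2 fold change 0.04, edgeR adjusted p = 0.708). Cdk2 fell by 0.35 (edgeR adjusted p = 0.00017).

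Of 19 E2f target genes of S phase entry, 17 were tested, of which 14 were lower and 1 higher, with a median of -0.57. Ccna2, which encodes the S phase cyclin A2, fell by 0.82, Rrm2, a ribonucleotide reductase subunit, by 0.73, and Mybl2, a transcription factor of the cell cycle, by 0.68 on the log2 scale (edgeR adjusted p = 1.1e-07, 2.56e-06 and 1.06e-06). Exosc9 covers 12.5% of the Ccna2 exons on the opposite strand. Of the 14 lower genes, 3 had a miR-497-5p site in the 3′ UTR, where 40.5% of all lower genes with an annotated 3′ UTR had one, 20.1% of the higher genes and 28.1% of all tested genes. Mcm6, a subunit of the replicative helicase, was higher by 0.16 (edgeR adjusted p = 0.0231), a call lost in 5 settings: with the replicate block (edgeR adjusted p = 0.073) and without NC library 1 or 2 or miR-497 library 1 or 2 (edgeR adjusted p up to 0.1). Tk1 and Cdt1 were listed at 0 in all 6 libraries.

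Genes that act on the D cyclins moved in both directions. Of 13 listed transcription factors upstream of them, 6 were lower and 6 higher, with a median of 0.14. The immediate-early factor Fos fell by 1.51, from 5.90 ± 1.93 to 2.07 ± 0.217 CPM (edgeR adjusted p = 8.83e-05). The AP-1 members Fosl1 and Jund fell by 0.74 and 0.52 on the log2 scale (edgeR adjusted p = 9.58e-05 and 7.01e-07); opposite-strand genes cover 57.2% and 52.6% of their exon bases, so both values are uncertain. Foxo3, a factor that PI3K signalling restrains, was higher by 0.86, Stat5a by 0.74 and Mycn by 0.72 (edgeR adjusted p = 5.34e-08, 0.00049 and 9.1e-09). Myc itself was lower by 0.17, from 124 ± 2.72 CPM with NC to 110 ± 5.80 with miR-497 (edgeR adjusted p = 0.0137).

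Of 14 genes of D cyclin turnover and Cdk4 folding, 13 were tested, with 5 higher, 4 lower and a median of -0.01. Cryab, a small heat shock protein known as a cofactor of Fbxo4 in cyclin D1 ubiquitination, rose most, from 183 ± 3.38 to 963 ± 81.6 CPM (log2 fold change 2.40, edgeR adjusted p = 8.32e-14); Hspb2 covers 17.0% of its exons on the opposite strand. Cul1 and Rbx1, core subunits of SCF ubiquitin ligases, were higher by 0.49 and 0.41 (edgeR adjusted p = 2.88e-06 and 2.19e-05). Cdc37, the co-chaperone that brings Cdk4 to Hsp90, fell by 0.34, and Cul4b and Cul4a, scaffolds of the ligase that recognises D cyclins through Ambra1, fell by 0.31 and 0.26 on the log2 scale (edgeR adjusted p = 3.72e-05, 0.000679 and 0.00107). Ddb1, on the same list, was higher by 0.24 (edgeR adjusted p = 0.00234). Ambra1 itself did not pass the test (log2 fold change -0.009, edgeR adjusted p = 0.929). Fbxo31 was listed at 0 in all 6 libraries.

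**Figure D5:**
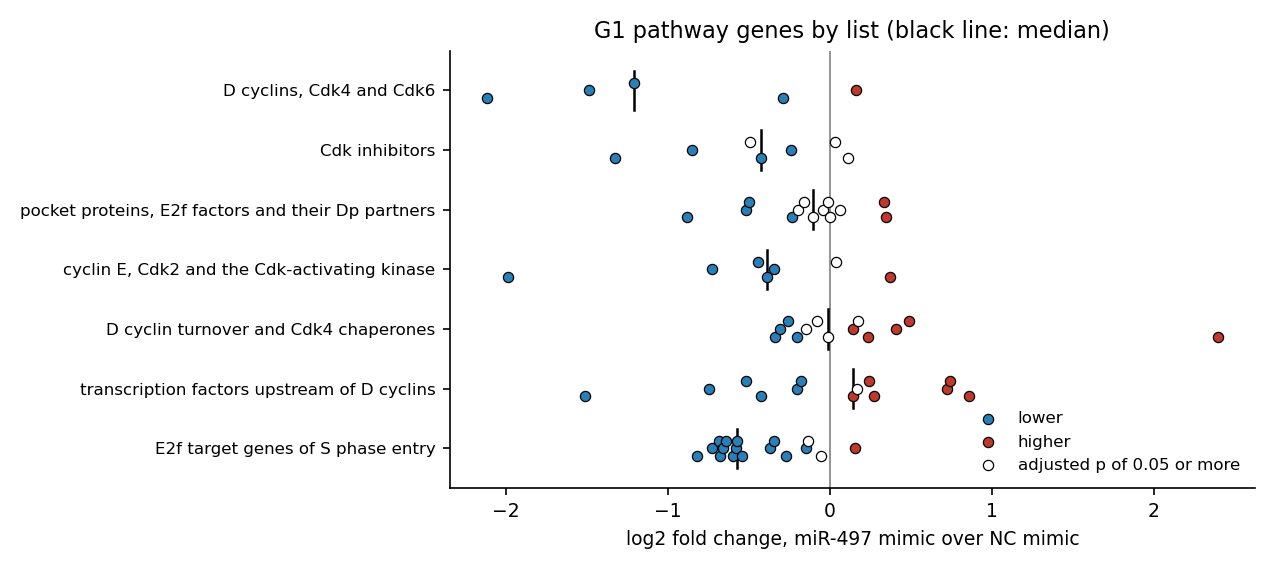
Log2 fold change, miR-497 over NC (x axis), of each tested gene of the 6 pathway lists and of the 5 genes described here (top row); blue points were lower, red points higher, white points did not pass an adjusted p of 0.05, and the black line is the median. E2f target genes lie almost all to the left of 0, at a median of -0.57, while genes of turnover and upstream factors lie on both sides.

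The genes with the most similar profiles were found among 9293 tested genes with a mean log2 CPM of at least 3, as the smallest Euclidean distance over the 6 libraries between log2 CPM values centred on the NC mean. Among the nearest to Ccnd1 was Stard4, a sterol carrier (distance 0.0512). Nearest to Ccnd2 were Pfkl, a phosphofructokinase subunit (0.106), and Ssrp1, a histone chaperone subunit (0.115). Ccnd3 was nearest to 2 interferon-induced genes, Parp12 (0.111) and Rsad2 (0.20), whose log2 fold changes were -2.12 and -2.10. For Cdk4 the nearest were Psmd3, a proteasome subunit (0.0376), and Cdc42ep1 (0.0506), and for Cdk6 they were Pnpla6, a lysophospholipase (0.152), and Ist1, of the ESCRT machinery (0.16). Of the genes named here, Pfkl and Rsad2 had 2 sites for miR-497-5p each, Ist1 had 4, Ssrp1 and Pnpla6 had 1, and Stard4, Parp12, Psmd3 and Cdc42ep1 had none. With 2 groups, such a likeness rests almost wholly on the size of 1 difference.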

How the data were processed

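Poly(A) RNA-seq was analysed from 6 libraries, 3 per mimic, with groups and numbers read from their titles. The authors deposited unnormalized counts per Ensembl gene. The submitters' processing notes name STAR 2.5.4b, featureCounts, Subread 1.6.1, edgeR 3.32.1 and GRCm38, without roles; the annotation release, strand setting and treatment of multiply aligned reads are not given in the sources used here. Symbols, lengths, 3′ UTRs and coordinates came from GENCODE M21 (GRCm38), which matched 55141 of 55401 identifiers.

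Differential expression was tested with edgeR 4.0.16 (R 4.3.3): filterByExpr (minimum count 10, minimum total 15), TMM, quasi-likelihood F-test, group as the only term, 2-sided, Benjamini-Hochberg over all tested genes. SE is the log2 fold change divided by the root of F. Ratios between genes used log2 CPM with a prior count of 2. The fit was tested on simulated counts. Within groups the chi-square per degree of freedom was at least 8.12, so no pair of libraries agreed within sampling noise. The members and lists were chosen with earlier results of these data known. Pathway genes were named as up to 3 higher and 3 lower called genes per list by size. Cdkn1a, Cdkn1b, Cdkn2a, Ddb1, Ambra1, E2f1, E2f2, E2f3, Cdk2, Cdk7, Mnat1 and Myc were added after their values were seen. Alternatives were 2 scalings, 2 filters, DESeq2 1.42.0, limma 3.58.1 voom, the replicate block and leaving out each library. Of the genes with profiles most like a member's, 2 per member were named, except that 1 is not reported here.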

Additional observations from a re-analysis of the deposited data

How the results depend on the processing

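Over 13 alternatives, the 5 genes kept their direction in all 65 pairs of gene and setting and their side of the threshold in 63; both exceptions were Cdk4. With the replicate block its log2 fold change was 0.16 (edgeR adjusted p = 0.0549), and Ccnd1, Ccnd2, Ccnd3 and Cdk6 kept their calls. Same-numbered libraries had correlations of deviations of -0.119, -0.0351 and -0.133, so none was positive. Differently numbered libraries were not compared, so these values cannot show whether equal numbers mark a shared culture or batch. Leaving out 1 library gave -0.35 to -0.21 for Ccnd1, -1.53 to -1.43 for Ccnd2, -2.18 to -2.03 for Ccnd3, -1.25 to -1.15 for Cdk6 and 0.12 to 0.19 for Cdk4. All tested genes gave 3029 to 3998 higher and 3374 to 3995 lower calls. The replicate block moved the higher calls among E2f targets from 1 to 0 and among pocket protein and E2f genes from 2 to 1, and upper quartile scaling moved those of Cdk inhibitors from 0 to 1 (Cdkn1a). Leaving out 1 library gave 0 to 1 higher E2f targets and 1 to 2 higher pocket protein and E2f genes, and 4 to 6 lower upstream factors. E2f1 changed sign near 0, to -0.0026 without a filter and -0.0094 without NC library 1, with leave-one-out values from -0.0094 to 0.0202. The cause was not tested.

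The per-length values followed from the length used. With longest and median transcript lengths, the summed D cyclin RPKM was 488 and 1497 with NC, and 217 and 541 with miR-497. The shares with NC were 30.3% and 9.88% for Ccnd1, 27.8% and 57.7% for Ccnd2, and 41.9% and 32.5% for Ccnd3. With miR-497 they were 55.97% and 22.4%, 22.4% and 56.98%, and 21.7% and 20.6%. Cdk4 made up 93.7% and 63.6% of kinase RPKM with NC, and 97.5% and 81.9% with miR-497. Leaving out 1 library gave sums of 250.1 to 265 with NC and 136 to 145 with miR-497. The shares then were 44.9% to 45.8% and 68.4% to 68.9% for Ccnd1, 35.2% to 35.5% and 23.1% to 23.3% for Ccnd2, 18.8% to 19.6% and 7.92% to 8.33% for Ccnd3, and 91.7% to 92.4% and 96.6% to 96.9% for Cdk4. In the shortest 3′ UTR the number of sites was 0 for Ccnd2, Ccnd3 and Cdk6; counting 8mers alone left 0 for Ccnd1 and Ccnd3 and 1 each for Ccnd2 and Cdk6.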
